A study of Mus musculus with 8 samples.

Results

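The Hox cluster genes were the 39 genes of the count table, out of 46078, whose symbol is Hox followed by a, b, c or d and a number. They were described in fully grown germinal vesicle (GV) oocytes, the stage before meiosis resumes, of mice that lack Cnot7 and Cnot8, the deadenylase subunits of the CCR4–NOT complex that shortens mRNA poly(A) tails. The KO females carried Cnot7 fl/fl, Cnot8 fl/fl and the Zp3-Cre transgene, in which the promoter of the zona pellucida gene Zp3 drives Cre in growing oocytes, so the floxed alleles were deleted after the oocyte had begun to grow and the somatic cells of the ovary kept both genes. Control oocytes came from Zp3-Cre mice, and the transgene was thus present in both groups. Per the study's methods, females had a C57BL/6J background, were 4 weeks old and received PMSG, a gonadotropin, before collection. RNA-seq was made from 4 control libraries and 4 CNOT7&8 KO libraries, each of 100 pooled oocytes, and the number of females behind each pool is not given in the sources used here.

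Hox genes encode homeodomain transcription factors that give cells along the body axis their regional identity. In the mouse they lie in 4 clusters, and the genes at one end (anterior, low numbers) are used early and toward the head, whereas those at the other end (posterior, high numbers) are used later, toward the tail and in the limbs and genital tubercle. In cells that do not use them, the clusters are held silent by Polycomb complexes (PRC1 and PRC2), which Trithorax-group proteins oppose, and Hox proteins bind DNA together with TALE cofactors of the Pbx, Meis and Pknox families. In GRCm38 the Hoxa cluster (11 genes) lies on chromosome 6, Hoxb (10 genes) spans 173.941 kb of chromosome 11 (96194316-96368256), Hoxc (9 genes) 115.75 kb of chromosome 15 (102921103-103036852) and Hoxd (9 genes) 96.833 kb of chromosome 2 (74668310-74765142).

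Counts summed to 14943671 to 44092144 per control library and 8639444 to 26784110 per KO library. Levels are given as CPM, a gene's counts scaled to a common size by the TMM-scaled library size, and 3 counts, taken as the detection floor, made 0.0802 CPM in the deepest library (control 1) and 0.326 CPM in the shallowest (KO 1), for counting error only. Of the targeted genes, Cnot8 measured 197.2, 163.1, 156.5 and 154.2 CPM in control 1 to 4 and 33.1, 35.5, 35.9 and 36.1 in KO 1 to 4. Cnot7 measured 1048, 899.96, 897.7 and 885.7 in control and 748.8, 788.3, 622.3 and 716.6 in KO libraries, a log2 fold change of -0.38 ± 0.11 (SE) that did not reach 2-fold, and a count per gene does not show which exons the reads came from. The summed level of 12 oocyte markers was 19476 to 21949 CPM in control and 15420 to 18013 in KO libraries, with 1 higher and 7 lower at an unadjusted p under 0.05 and a median log2 fold change of -0.40. Of these markers 1, Mos, was downregulated (log2 fold change -1.28 ± 0.29 (SE), edgeR adjusted p = 0.00289). The labels name no batch or date and list the libraries as separate samples without saying that they came from separate animals, so the p-values measure only the spread between these libraries.

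Hoxa7 held most of the Hox mRNA in control oocytes, and 19 other Hox genes were upregulated in CNOT7&8 KO oocytes. The summed level of the 39 genes averaged 26.0 CPM over the control libraries (SD 1.62, n = 4) and 65.0 CPM over the KO libraries (SD 4.69, n = 4), 2.50 times as much. Without Hoxa7 the sum was 7.04 ± 0.860 and 51.5 ± 5.39 CPM, a ratio of 7.32, and the KO libraries (45.8 to 58.2) lay far above the control libraries (6.19 to 8.23). Hoxa7 took 69.7% to 74.8% of the Hox counts of a control library and 17.6% to 24.7% of those of a KO library. Per kb of exon, which allows genes of different length to be compared, its share was 66.0% to 71.1% in control and 14.3% to 20.5% in KO libraries. Each library pools many oocytes, so a higher level in every oocyte, a high level in some of them and RNA from other cells carried along cannot be told apart from a sum.

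**Figure D1:**
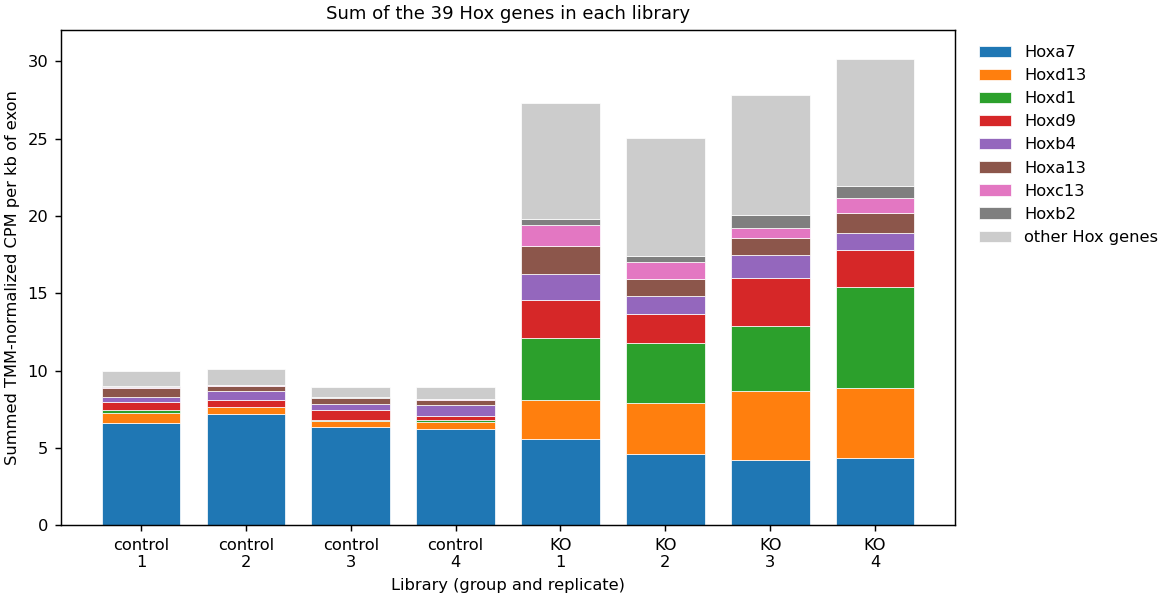
Stacked bars give the summed level of the 39 Hox genes in each of the 8 libraries, in TMM-normalized CPM per kb of exon, split into 8 named genes and the other Hox genes. The control bars (8.94 to 10.1 CPM per kb) are mostly Hoxa7, whereas the KO bars (25.0 to 30.1) hold large segments of Hoxd13, Hoxd1 and Hoxd9 and of the other Hox genes together.

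Of the 39 genes, 36 had at least 1 count in a library and 23 passed the filter of 0.2 CPM in 2 libraries. Of these 23, 19 were upregulated (82.6%) and 0 downregulated by edgeR's quasi-likelihood test, with an adjusted p of at most 0.05 over all 19241 tested genes and a change of at least 2-fold. At an unadjusted p under 0.05, 20 were higher and 1 was lower, and the edgeR exact test and DESeq2 also called 0 downregulated. Of all tested genes, 23.8% were upregulated and 6.56% downregulated. Among tested genes with a mean under 10 CPM, where every Hox gene but Hoxa7 lies, 35.6% were upregulated. The filter itself favours genes that are high in one group: 13 of the 23 passed only with their KO libraries, and 12 of those were upregulated, against 7 of the 10 that passed on control libraries alone. The same split over all tested genes is not given here, so these shares have no matching background. The median log2 fold change was 3.18 over the tested Hox genes, 0.12 over all tested genes and 0.74 over those under 10 CPM. All KO libraries lay above all control libraries for 19 of the 23 Hox genes, against 34.1% of tested genes under 10 CPM, and all KO libraries lay below all control libraries for 1, Hoxa7, against 21.4% of all tested genes. For these 20 genes the exact permutation test over the 70 assignments of the libraries gave p = 0.0286, the smallest it can give. Any gene whose groups separate fully gets this value, so it adds nothing to the separation itself.

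**Figure D2:**
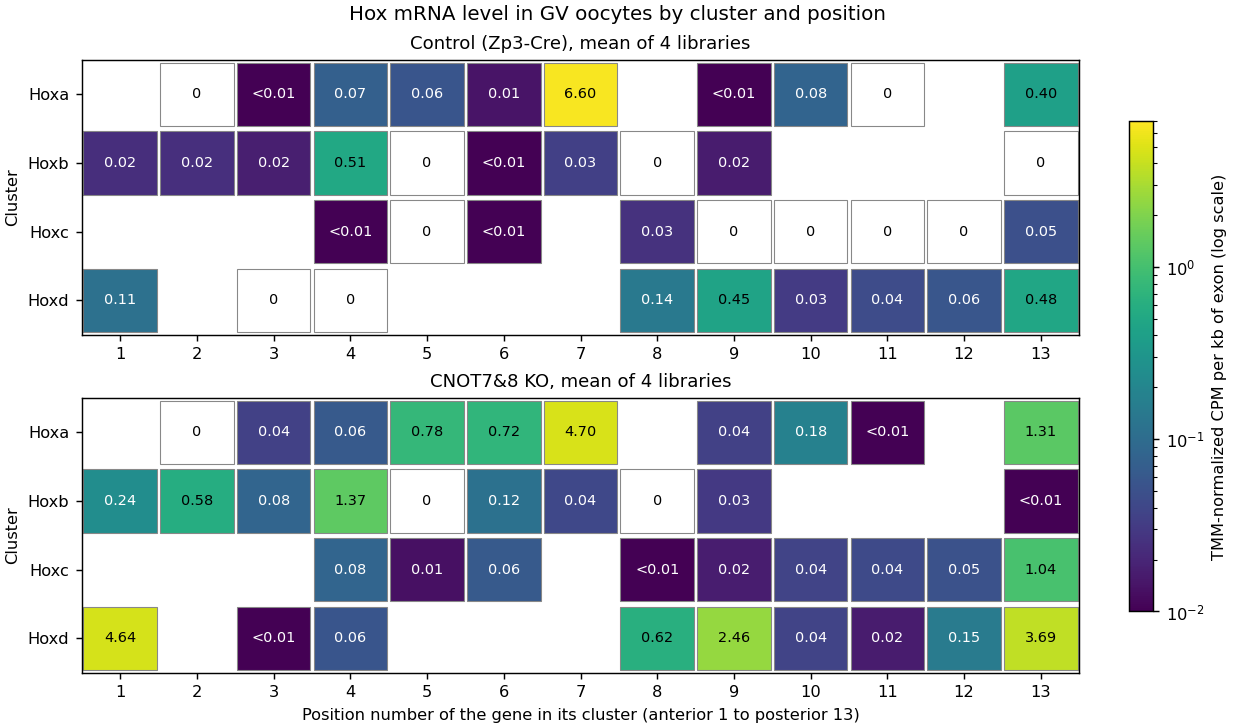
Each cell is one of 38 Hox genes, placed by cluster (rows) and position number (columns), with its mean level over 4 libraries in TMM-normalized CPM per kb of exon, printed and coloured on a log scale. White cells marked 0 had no count in that group. In control oocytes Hoxa7 (6.60) stands alone, and in CNOT7&8 KO oocytes Hoxd1 (4.64) and Hoxd13 (3.69) reach a similar level.

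The promoters of 3 genes are shown because these genes bracket the range of the clusters: Hoxd1 and Hoxd13, which rose to among the highest levels in KO oocytes, and Hoxa7, the gene with the highest level in control oocytes and the one whose KO libraries all lay below all control libraries. Each sequence runs 5′ to 3′ from 250 bases before to 50 bases after the RefSeq gene start (GRCm38.p6), with CG dinucleotides, which promoters of the CpG island type hold in large numbers, in capitals.
Hoxd13, chr2:74667975-74668274, plus strand: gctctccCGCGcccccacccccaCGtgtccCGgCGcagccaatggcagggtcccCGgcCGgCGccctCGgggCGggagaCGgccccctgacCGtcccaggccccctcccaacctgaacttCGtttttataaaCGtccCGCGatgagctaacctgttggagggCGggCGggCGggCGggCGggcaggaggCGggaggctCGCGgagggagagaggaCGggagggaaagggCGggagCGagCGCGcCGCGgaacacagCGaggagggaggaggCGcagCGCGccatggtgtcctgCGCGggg
Hoxd1, chr2:74762730-74763029, plus strand: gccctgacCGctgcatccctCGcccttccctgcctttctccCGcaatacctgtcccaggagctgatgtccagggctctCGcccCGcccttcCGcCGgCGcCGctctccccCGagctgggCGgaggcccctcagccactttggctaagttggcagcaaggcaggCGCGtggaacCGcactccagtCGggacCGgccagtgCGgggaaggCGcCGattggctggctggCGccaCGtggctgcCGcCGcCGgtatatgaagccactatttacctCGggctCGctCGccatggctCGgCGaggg
Hoxa7, chr6:52218524-52218823, minus strand: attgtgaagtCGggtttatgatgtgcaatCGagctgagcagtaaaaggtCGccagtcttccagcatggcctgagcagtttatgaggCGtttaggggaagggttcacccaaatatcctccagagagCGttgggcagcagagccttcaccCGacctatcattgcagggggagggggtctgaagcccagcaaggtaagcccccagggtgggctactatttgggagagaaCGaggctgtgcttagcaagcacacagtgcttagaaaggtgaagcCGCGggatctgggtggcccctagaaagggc

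The Hoxd13 window held 37 CG dinucleotides, the Hoxd1 window 29 and the Hoxa7 window 9, and among upregulated genes the Hoxa9 and Hoxd4 windows held 4, the Hoxd8 window 6 and the Hoxc4 window 9. The Hoxa7 window lies inside the gene as GENCODE annotates it (52214491-52221854), so it belongs to a start downstream of the GENCODE one. The Hoxa9, Hoxc4 and Hoxd4 windows also lie inside their annotated genes, whereas the Hoxd8 window spans the annotated start. Over the 24 windows of the 22 Hox genes found in the RefSeq table, the median was 14.5 CG, against 7 over all 32851 windows. Both strands were searched for 3 motifs. The Hox-Pbx motif TGATNNAT was in 16.7% of the Hox windows and 8.85% of all windows, the TATA motif TATAAA in 16.7% and 13.6%, and CCAAT in 62.5% and 37.4%. Hoxd13 held both TATAAA and CCAAT, Hoxd1 held CCAAT, and Hoxa7 held none of the 3. Matches describe the letters of these windows and say nothing of which start was used in the oocytes.

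Upregulated genes were found in all 4 clusters and in all 3 groups of positions along them. In the Hoxa cluster 6 of 8 tested genes were upregulated, in Hoxb 5 of 5, in Hoxc 3 of 3 and in Hoxd 5 of 7. By position, 9 of 9 tested anterior genes (positions 1 to 4), 5 of 6 central genes (5 to 8) and 5 of 8 posterior genes (9 to 13) were upregulated. Without Hoxa7, the summed level of the 12 anterior genes was 2.38 ± 0.380 CPM (SD, n = 4, as for the sums that follow) in control and 25.4 ± 2.91 in KO libraries. The 10 other central genes summed to 0.659 ± 0.238 and 4.28 ± 0.219 CPM, and the 16 posterior genes to 3.995 ± 0.655 and 21.9 ± 2.46 CPM. No test of a difference between clusters or positions was run.

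Hoxd1 was among the anterior genes with a large change. Hoxd1, which in the mouse acts in pain-sensing neurons, measured 0.454, 0.0987, 0.0680 and 0.218 CPM in control and 7.38, 7.25, 7.83 and 12.1 in KO libraries, with KO 4 above the other KO libraries. Its log2 fold change was 5.10 ± 0.41 (SE) (adjusted p = 1.32e-06, edgeR, as for the adjusted p-values that follow). Hoxb2, active in the hindbrain, measured 0.107, 0.0987, 0.136 and 0 CPM in control, where control 4 had no count, and 1.30, 1.43, 2.84 and 2.59 in KO libraries, a log2 fold change of 4.41 ± 0.51 (SE) (adjusted p = 2.20e-05).

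Hoxb4, known for its role in blood stem cells, already had a mean above 1 CPM in control oocytes. It measured 0.935, 1.43, 1.02 and 1.82 CPM in control and 4.34, 3.13, 3.88 and 2.69 in KO libraries without overlap, and its log2 fold change of 1.44 ± 0.28 (SE) was the smallest of the 19 upregulated genes (adjusted p = 0.00108). Hoxb1, which sets the identity of a hindbrain segment, measured 0.0802, 0, 0.0680 and 0.0728 CPM in control and 0.326, 0.549, 1.05 and 0.341 in KO libraries, with KO 3 highest and a log2 fold change of 3.18 ± 0.71 (SE) (adjusted p = 0.00241). Hoxb3 measured 0.107, 0.0493, 0.0680 and 0.0728 CPM in control and 0.760, 0.220, 0.247 and 0.170 in KO libraries, and its call was the least firm. KO 1 stood above the other KO libraries, the log2 fold change was 1.90 ± 0.72 (SE) with an adjusted p of 0.0392, and without KO 1 the adjusted p was 0.0929, without control 1, 2, 3 or 4 from 0.0505 to 0.0888, and with DESeq2 0.0572.

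Another 3 anterior genes rested on few counts. Hoxa3, used in the pharyngeal arches and thymus, had 0, 1, 0 and 0 counts in control 1 to 4 and 2, 2, 4 and 8 in KO 1 to 4, a ratio of pooled counts per library size of 18.9 with a 95% exact counting interval of 2.93 to 791.5 (adjusted p = 0.00764). Without both control 1 and KO 4, the adjusted p of Hoxa3 was 0.0604. Hoxc4 had 1, 0, 0 and 0 counts in control and 2, 3, 3 and 8 in KO libraries, a pooled ratio of 18.9 (2.93 to 791.5, adjusted p = 0.00434). Hoxd4 had no count in any control library and 0, 4, 4 and 6 counts in KO 1 to 4 (adjusted p = 0.0110). Against a floor of 3 counts per control library, its KO mean of 0.168 CPM was at least 1.03-fold higher, so the depth of the control libraries sets almost no bound on its change. These genes were present at a trace in KO oocytes, and their fold changes are known only within wide limits.

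**Figure D3:**
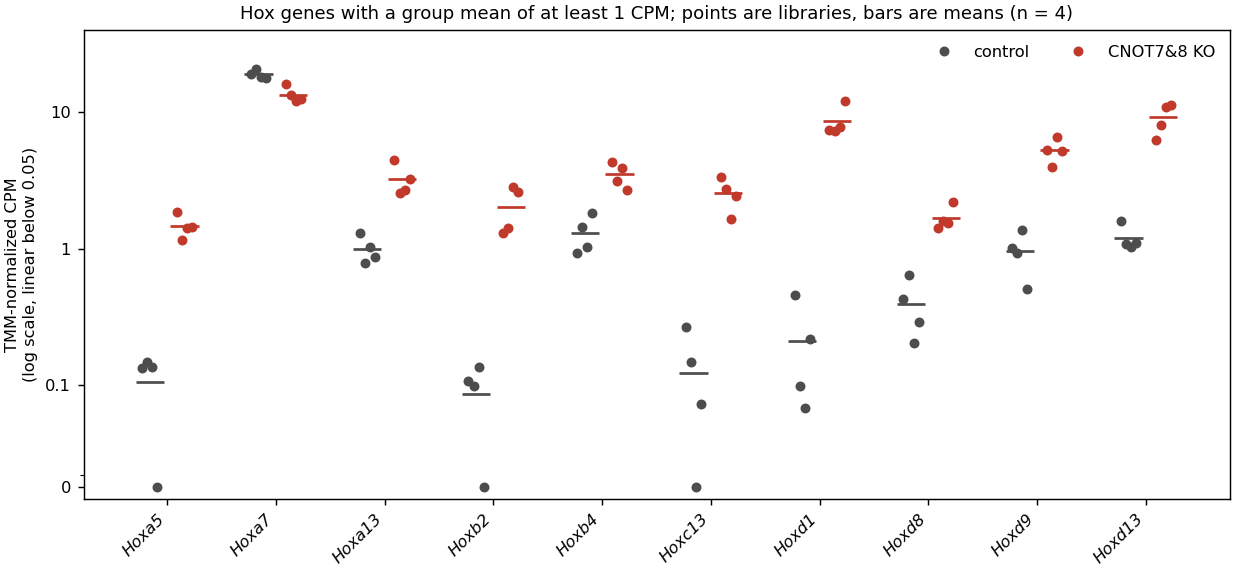
Points are the 8 libraries and bars the group means (n = 4) for 10 Hox genes with a group mean of at least 1 CPM, in TMM-normalized CPM on a log axis that is linear below 0.05. For 9 of the 10 genes the KO points (red) lie above the control points (grey), and for Hoxa7 they lie below.

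The central genes included Hoxa7, the most abundant Hox gene of both groups by CPM. Hoxa7, which takes part in patterning the trunk skeleton, measured 18.9, 20.7, 18.3 and 17.99 CPM in control and 16.1, 13.3, 12.2 and 12.4 in KO libraries. The KO libraries were all lower, with KO 1 nearest to the control range, and the log2 fold change was -0.50 ± 0.14 (SE), under the 2-fold threshold (adjusted p = 0.0108). The difference depended on the scaling: with library size alone the log2 fold change was -0.22 (adjusted p = 0.198), and when TMM used the genes over 10 CPM it was -0.25 (adjusted p = 0.158). These scalings moved the median log2 fold change of all tested genes by 0.29 and 0.26, and Hoxa7 lay below that median under every scaling tried. That median includes genes under 10 CPM, whose own median was 0.74, whereas Hoxa7 lies above 10 CPM. Among listed genes of 10 CPM or more, the median was -0.40 for oocyte markers. Over the other lists it ran from -0.78 (TALE cofactors) to 1.27 (granulosa and cumulus markers). Whether Hoxa7 differed from genes of its own level was not tested. Per kb of exon, Hoxa7 was at 6.60 ± 0.417 CPM per kb (SD, n = 4) in control oocytes, followed by Hoxb4 at 0.507 ± 0.159, Hoxd13 at 0.483 ± 0.109 and Hoxd9 at 0.447 ± 0.164, which did not differ beyond their spread. In KO oocytes Hoxa7 (4.70 ± 0.616 CPM per kb), Hoxd1 (4.64 ± 1.25) and Hoxd13 (3.69 ± 0.971) followed each other within their spread.

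Hoxa5, needed in the developing airway and lung, measured 0.134, 0.148, 0.136 and 0 CPM in control and 1.85, 1.15, 1.42 and 1.43 in KO libraries, a log2 fold change of 3.60 ± 0.48 (SE) (adjusted p = 6.58e-05). Its neighbour Hoxa6 had 0, 1, 0 and 0 counts in control and 7, 10, 13 and 12 in KO libraries, a pooled ratio of 49.5 with an interval of 8.42 to 2003 (adjusted p = 0.000239). Hoxa5, Hoxa6 and Hoxa7 lie next to each other on chromosome 6, and the first 2 were higher and the third lower in KO oocytes. Hoxd8 measured 0.428, 0.641, 0.204 and 0.291 CPM in control and 1.41, 1.59, 1.54 and 2.21 in KO libraries, without overlap and with KO 4 highest, a log2 fold change of 2.06 ± 0.37 (SE) (adjusted p = 0.000575). Hoxb6 had 0, 0, 0 and 1 counts in control and 1, 7, 4 and 5 in KO libraries (pooled ratio 20.1, 3.14 to 838.04, adjusted p = 0.00857). Hoxc6 had 1, 0, 0 and 0 and 2, 1, 2 and 6 counts (pooled ratio 12.98, 1.89 to 558.5, adjusted p = 0.0185, and 0.0657 with DESeq2). Both rested on a single control count.

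Among the posterior genes, Hoxd13, Hoxd9, Hoxa13 and Hoxc13 had the higher levels. Hoxd13, required for the digits and the genital tubercle, measured 1.60, 1.09, 1.02 and 1.09 CPM in control and 6.30, 8.07, 10.98 and 11.3 in KO libraries. Control 1 stood above the other control libraries and KO 1 was the lowest of its group, yet the groups were well apart, with a log2 fold change of 2.90 ± 0.26 (SE) (adjusted p = 2.94e-06). Hoxd9, used in the limb, measured 1.02, 0.937, 1.36 and 0.510 CPM in control and 5.32, 3.95, 6.60 and 5.18 in KO libraries, a log2 fold change of 2.44 ± 0.29 (SE) (adjusted p = 2.53e-05). Hoxa13, which acts with Hoxd13 in the limb tip and the urogenital tract, measured 1.31, 0.789, 1.02 and 0.874 CPM in control and 4.45, 2.58, 2.71 and 3.23 in KO libraries, a log2 fold change of 1.65 ± 0.28 (SE) (adjusted p = 0.000376). The genes at position 13 of 3 clusters were upregulated, whereas Hoxb13 had 1 count over all libraries. The third of these genes was Hoxc13, a regulator of hair and nail keratins. Hoxc13 measured 0.267, 0.148, 0 and 0.0728 CPM in control, where control 3 had no count, and 3.37, 2.75, 1.66 and 2.42 in KO libraries, a log2 fold change of 4.01 ± 0.50 (SE) (adjusted p = 3.93e-05). Hoxa9, a factor of blood progenitors, had 0, 0, 0 and 1 counts in control and 2, 4, 3 and 5 in KO libraries (pooled ratio 16.5, 2.51 to 698.3, adjusted p = 0.0110).

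Besides Hoxa7, 3 tested genes were not called, all of them posterior. Hoxa10, which acts in the uterus, measured 0.347, 0.296, 0.204 and 0.218 CPM in control and 0.651, 0.494, 0.432 and 0.715 in KO libraries. The groups did not overlap, but the log2 fold change of 1.03 ± 0.43 (SE) had an adjusted p of 0.0562. Hoxa10 passed with the edgeR exact test (adjusted p = 0.0442), with library size alone (0.0165), with TMM from genes over 10 CPM (0.0166), with upper-quartile scaling (0.0370) and without KO 3 (0.0386). Hoxd12 measured 0.0802, 0, 0.0680 and 0.437 CPM in control and 0.217, 0.275, 0.247 and 0.783 in KO libraries, with KO 4 above the rest and control 4 above the other control libraries, a log2 fold change of 1.66 ± 0.83 (SE) (adjusted p = 0.107). Without control 4, the log2 fold change of Hoxd12 was 2.81 (adjusted p = 0.0174). Hoxd11 measured 0.267, 0.197, 0 and 0.291 CPM in control and 0, 0.110, 0 and 0.170 in KO libraries, with overlap, a log2 fold change of -1.11 ± 0.92 (SE) (adjusted p = 0.325). From position 8 to the posterior end of Hoxd, the genes at 8, 9 and 13 were thus upregulated, those at 11 and 12 were not called and the one at 10 was not tested.

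The 16 untested genes had at most 5 counts in any library. Hoxa2, Hoxb5 and Hoxb8 had no count in any of the 8 libraries. Of the 12 genes without a count in any control library, 9 had at least 1 count in a KO library, whereas each gene with a control count also had a KO count. Hoxa4 had 5, 4, 2 and 0 counts in control and 0, 3, 1 and 5 in KO libraries, and Hoxc8 had 3, 0, 2 and 1 and 0, 0, 1 and 0, and for neither was a change detectable at this depth. In Hoxc, the posterior genes Hoxc9, Hoxc10, Hoxc11 and Hoxc12 had no control count and 3, 4, 7 and 4 counts summed over the KO libraries. Of these, Hoxc11 was the 1 untested gene whose 95% exact counting interval for the pooled ratio left out 1, with a lower limit of 1.70. The Hoxc11 counts in KO 1 to 4 were 1, 2, 0 and 4, and the groups overlapped. Its KO mean was 0.545 times the floor of 3 counts per control library. The interval leaves out the spread between libraries, so no change was detectable for Hoxc11 either. At least 1 count was found for 17 to 22 Hox genes in control and 26 to 31 in KO libraries, and more than 3 counts for 6 to 15 and 14 to 25. If every library had been as shallow as KO 1, 14.2 to 15.7 Hox genes would be expected with a count in control and 25.2 to 27.4 in KO libraries. The larger number of Hox genes detected in KO libraries was thus seen although their median depth was lower. The same numbers over all genes are not given here, and 35.6% of tested genes under 10 CPM were upregulated. Whether the gain in detected genes was particular to Hox genes was not tested.

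Several noncoding RNA genes of the clusters were upregulated beside their Hox neighbours. Of 17 such genes found by symbol, 5 were tested, and 3 were upregulated and 0 downregulated, with 4 higher and 0 lower at an unadjusted p under 0.05. Its share, and those of the lists that follow, stand beside 23.8% upregulated among all tested genes and 35.6% among those with a mean under 10 CPM over the 8 libraries. For this list and those that follow with 0 downregulated, edgeR's quasi-likelihood test, its exact test and DESeq2 each gave 0. Haglr, whose start lies 83 bases from Hoxd1 on the opposite strand, measured 0.0535, 0.0493, 0.204 and 0.146 CPM in control and 0.543, 1.87, 0.802 and 0.919 in KO libraries, a log2 fold change of 3.34 ± 0.60 (SE) (adjusted p = 0.000521). Hotairm1 had 0, 1, 1 and 0 counts in control and 7, 5, 4 and 9 in KO libraries, a pooled ratio of 14.7 with an interval of 3.68 to 128.4 (adjusted p = 0.00466). Hoxb3os measured 0.187, 0.197, 0.204 and 0.437 CPM in control and 0.868, 0.329, 0.678 and 0.681 in KO libraries (log2 fold change 1.34 ± 0.49 (SE), adjusted p = 0.0348). Haglr, Hotairm1 and Hoxb3os passed the filter only with their KO libraries. Halr1 and Hoxaas3, which passed on control libraries alone, were not called. The filter thus favoured upregulated genes here, and it can do so in the lists that follow. The strand setting of the counting is not given in the sources used here, so reads of genes that share exon sequence may not be told apart. Hoxb3os shares 2250 bases with Hoxb3 (52.9%) and 953 with Hoxb2 (27.3%), and Hoxaas3 586 with Hoxa7 (20.4%). Hoxa3, whose call rested on few counts, shares 1529 bases (25.4%) with opposite-strand genes, among them Hoxaas2 and Hoxaas3. It also shares 482 bases with Gm28308 on its own strand. Hoxd4 shares 388 bases with Hoxd3 and 1154 with the annotated fusion gene Gm28230 on its own strand.

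Genes that flank the clusters served as a comparison of position. Of 17 flanking protein-coding genes tested, 5 were upregulated and 0 downregulated (8 lower at an unadjusted p under 0.05, all by less than 2-fold), beside 23.8% upregulated over all genes. The median log2 fold change was -0.25, but the list divided by level: of 4 genes with a mean under 10 CPM all 4 were upregulated (median 2.87), and of 13 more abundant ones 1 was (median -0.34). All but 1 of the tested Hox genes lie in the lower range of levels, where 35.6% of tested genes were upregulated. Evx2, a homeobox gene that borders the Hoxd cluster, measured 0.187, 0.148, 0.136 and 0 CPM in control and 0.760, 0.933, 0.370 and 0.545 in KO libraries (log2 fold change 2.24 ± 0.59 (SE), adjusted p = 0.00692). The next gene on that side, Lnp, which shapes the endoplasmic reticulum, measured 4.52, 5.18, 5.99 and 4.66 and 19.6, 21.2, 19.2 and 26.9 CPM (2.10 ± 0.17 (SE), adjusted p = 1.55e-06). On the Hoxb side, Ttll6, a tubulin-modifying enzyme, measured 0.0802, 0, 0.136 and 0.0728 and 0.543, 1.26, 0.617 and 0.919 CPM (3.50 ± 0.62 (SE), adjusted p = 0.000490), and Calcoco2, an autophagy receptor, had 0, 0, 0 and 1 and 4, 5, 10 and 16 counts (pooled ratio 41.3, 6.94 to 1677, adjusted p = 0.000813). The fifth, Snx10, a sorting nexin, measured 2.46, 1.18, 1.29 and 1.02 and 4.02, 4.56, 4.19 and 6.13 CPM (1.62 ± 0.30 (SE), adjusted p = 0.000641). Of the 4 genes under 10 CPM, Evx2, Ttll6 and Calcoco2 passed the filter only with their KO libraries. Only Snx10 passed on control libraries alone, so the filter favoured the share and median of that range. The other 12 flanking genes were not called. Among them was Evx1, a homeobox gene beside the Hoxa cluster. Evx1 measured 20.9, 18.3, 18.1 and 22.7 CPM in control and 17.0, 15.5, 19.8 and 15.2 in KO libraries (log2 fold change -0.25 ± 0.15 (SE), adjusted p = 0.168).

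Genes of the machinery that holds Hox clusters silent or active were mostly not called. Of 11 tested PRC2 subunits, which write H3K27 methylation, 1 was upregulated and 0 were downregulated, with 5 lower at an unadjusted p under 0.05. At an adjusted p of at most 0.05 without a fold threshold, 5 were lower and 2 higher. Among those lower by less than 2-fold were Aebp2 (log2 fold change -0.99 ± 0.15 (SE), adjusted p = 0.000184) and Ezh2 (-0.56 ± 0.16 (SE), adjusted p = 0.0099). The upregulated one was Phf19, a PRC2 accessory subunit, at 13.7, 17.2, 13.2 and 13.6 CPM in control and 35.4, 31.9, 26.2 and 25.5 in KO libraries (log2 fold change 1.04 ± 0.16 (SE), adjusted p = 0.000144). Of 20 PRC1 subunits, 7 were upregulated, beside 23.8% of all tested genes, and 0 downregulated, with 6 lower at an unadjusted p under 0.05 and a median log2 fold change of 0.11. All 5 with a mean under 10 CPM were upregulated, beside 35.6% of tested genes in that range, and 2 of the 15 more abundant ones. The Cbx proteins read H3K27 methylation for PRC1, and Cbx7 measured 7.27, 7.55, 4.97 and 5.83 CPM in control and 59.1, 51.9, 100.01 and 84.5 in KO libraries, a log2 fold change of 3.52 ± 0.23 (SE) (adjusted p = 3.29e-07). Cbx6 (3.79 ± 0.44 (SE), adjusted p = 2.28e-05) and Pcgf5 (2.06 ± 0.16 (SE), adjusted p = 1.04e-06) were also upregulated. Of 12 tested Trithorax-group and H3K27 demethylase genes, 0 were downregulated, 4 were lower at an unadjusted p under 0.05, and 1 was upregulated, Kmt2a, the H3K4 methyltransferase known for maintaining Hox expression. Kmt2a measured 1.12, 0.641, 1.02 and 0.437 CPM in control and 18.2, 20.3, 23.1 and 52.5 in KO libraries, with KO 4 far above the others, a log2 fold change of 5.08 ± 0.41 (SE) (adjusted p = 1.38e-06). Of the 19 upregulated Hox genes, 6 had their highest KO level in KO 4, 6 in KO 1, 5 in KO 3 and 2 in KO 2, and 4 had their lowest in KO 4. The part of Kmt2a in the Hox levels was not tested.

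**Figure D4:**
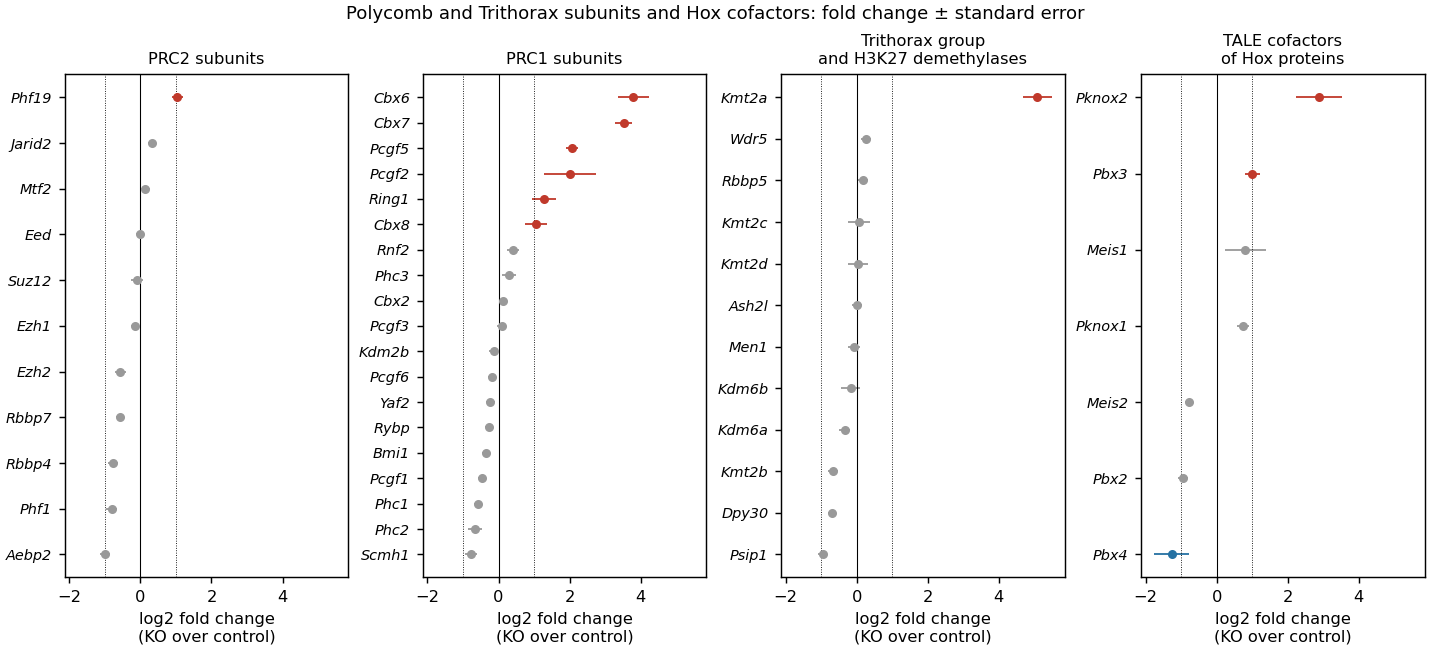
Points give the log2 fold change (KO over control) and bars its standard error from edgeR for tested subunits of PRC2 and PRC1 and for each tested Trithorax-group or H3K27 demethylase gene, together with TALE cofactors. Red marks upregulated and blue downregulated genes, grey genes were not called, and dotted lines mark 2-fold. Kmt2a (5.08), Cbx6 (3.79) and Cbx7 (3.52) lie farthest to the right.

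Of 8 tested TALE cofactors, 3 were upregulated and 1 was downregulated, with 4 higher and 3 lower at an unadjusted p under 0.05. Pknox2 measured 0.695, 0, 0.0680 and 0.146 CPM in control and 2.06, 2.69, 1.42 and 2.28 in KO libraries (log2 fold change 2.88 ± 0.64 (SE), adjusted p = 0.00241), and Pbx3 4.14, 2.47, 3.88 and 4.15 and 7.49, 7.74, 6.66 and 7.53 CPM (1.01 ± 0.20 (SE), adjusted p = 0.00124). The downregulated one, Pbx4, measured 1.39, 2.37, 2.93 and 1.24 CPM in control and 1.95, 0.329, 0.863 and 0.477 in KO libraries (log2 fold change -1.27 ± 0.50 (SE), adjusted p = 0.0470), with overlap between the groups, and its call was lost with each other scaling tried and without control 2, control 3, KO 2, KO 3 or KO 4. Summed over the list, TALE cofactors were at 692 to 870 CPM in control and 412 to 495 CPM in KO libraries, and Meis2 held most of both sums. Meis2 (log2 fold change -0.78 ± 0.12 (SE), adjusted p = 0.000147) and Pbx2 (-0.93 ± 0.14 (SE), adjusted p = 0.000137) were lower by less than 2-fold and were not called.

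Cdx proteins and retinoic acid switch on Hox genes in the embryo. Of 9 tested genes of these inputs, 4 were upregulated and 0 downregulated, with 2 lower at an unadjusted p under 0.05. Cdx2 measured 0.187, 0.148, 0.340 and 0.146 CPM in control and 0.434, 0.494, 0.493 and 0.579 in KO libraries (log2 fold change 1.31 ± 0.47 (SE), adjusted p = 0.0309). The retinoic acid receptor genes Rxrb (1.82 ± 0.28 (SE), adjusted p = 0.000167), Rarg (1.49 ± 0.41 (SE), adjusted p = 0.00842) and Rarb (1.48 ± 0.28 (SE), adjusted p = 0.000801) were also upregulated.

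Developmental transcription factor genes outside the Hox clusters were measured in the same way. Of 49 tested genes among 80 listed homeobox, T-box, GATA and related factors, 27 were upregulated and 2 downregulated, with a median log2 fold change of 1.58. Of the 44 with a mean under 10 CPM, 26 were upregulated, beside 35.6% of tested genes in that range (23.8% of all). The largest changes were of genes that were absent or nearly so in control oocytes. Such genes pass the filter only through their KO libraries, so the filter favours this pattern and may raise the share above. For this list, the split by genes that pass on control libraries alone is not given here. Mnx1, a motor neuron homeobox gene, had 0, 0, 0 and 0 counts in control and 2, 0, 11 and 40 in KO libraries, at least 3.47-fold higher against the floor. KO 4 held most of the Mnx1 counts, and without it the bound was 1.83-fold. Dlx2, a forebrain and jaw homeobox gene, had 0, 0, 0 and 0 and 5, 7, 6 and 9 counts, at least 2.46-fold higher. Msx1, of limb and face, had 0, 1, 0 and 0 and 9, 10, 12 and 11 counts (pooled ratio 49.5, 8.42 to 2003), and Tbx18 measured 0.134, 0, 0 and 0 and 1.52, 2.03, 1.91 and 2.42 CPM (log2 fold change 5.06 ± 0.61 (SE), adjusted p = 2.94e-05). The 2 downregulated genes, named after their values were seen, were Pax2 (-3.54 ± 0.60 (SE), adjusted p = 0.000379) and Meox1 (-2.07 ± 0.42 (SE), adjusted p = 0.00123). Whether the Hox genes differed from this list was not tested.

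Markers of the granulosa and cumulus cells that surround oocytes are given beside the Hox levels, since some of them moved in the same direction. Of 15 tested markers, 6 were upregulated and 0 downregulated, with 1 lower at an unadjusted p under 0.05, and 23.8% of all tested genes were upregulated (35.6% of those with a mean under 10 CPM). The sum of the whole list of 16 was 140 to 181 CPM in control and 221 to 298 CPM in KO libraries. Most of it came from 2 genes with opposite changes, the upregulated orphan receptor gene Nr5a2 at 69.3, 48.3, 57.2 and 51.5 CPM in control and 125.7, 113.9, 116.5 and 131.8 in KO libraries, and the aromatase gene Cyp19a1, which was lower by less than 2-fold, at 67.7, 53.3, 50.4 and 62.3 and 32.8, 38.1, 23.5 and 31.02 CPM. Inha, the inhibin alpha subunit, measured 6.57, 4.44, 9.9996 and 6.41 CPM in control and 38.4, 34.1, 26.5 and 4.77 in KO libraries, and Fst, which binds activin, 2.11, 1.13, 1.63 and 1.46 and 9.66, 13.2, 5.61 and 1.53 CPM. In KO 4 Inha and Fst lay within the control range, and Hoxd1 was at 12.1 CPM in KO 4, Hoxd13 at 11.3 and Hoxb4 at 2.69, the last its lowest KO level. Fshr, the FSH receptor, measured 1.58, 1.18, 0.952 and 1.46 and 3.47, 5.77, 2.90 and 3.34 CPM and Kitl, the ligand of the oocyte receptor Kit, 20.7, 11.9, 16.1 and 15.3 and 50.9, 52.2, 30.3 and 40.1 CPM, with KO 4 above all control libraries. Foxl2, which defines granulosa cells, was untested, at 0 to 0.0680 CPM in control and 0 to 0.109 CPM in KO libraries. Inhba, an activin subunit and the last of the 6 upregulated markers, was at 1.90, 3.11, 1.77 and 3.20 CPM in control and 7.49, 7.25, 5.61 and 1.63 in KO libraries, with KO 4 below all control libraries. The other tested markers were not called, among them Inhbb at 3.50 to 10.5 CPM in control and 2.18 to 19.8 in KO libraries, Amhr2 at 0 to 1.29 and 0.375 to 1.52, Wt1 at 0.0987 to 1.20 and 0.326 to 1.17, and Amh at 0.0728 to 1.70 and 0.109 to 0.617.

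**Figure D5:**
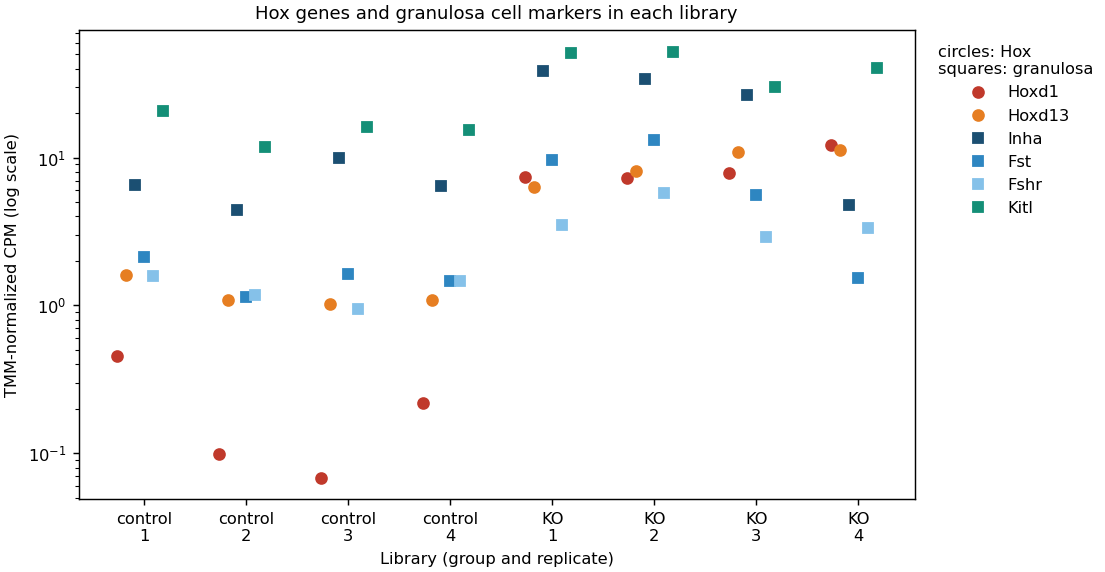
Points give the level of 2 Hox genes (circles) and 4 granulosa cell markers (squares) in each of the 8 libraries, in TMM-normalized CPM on a log axis. All KO points of Hoxd1, Hoxd13, Fshr and Kitl lie above their control points, and those of Inha and Fst overlap with control through KO 4 (4.77 and 1.53). The 4 markers shown are among the 6 upregulated of 15 tested. Both Hox genes shown were highest in KO 4, which holds for 6 of the 19 upregulated Hox genes.

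For theca and stroma cells, 0 of 9 tested markers were called in either direction by the quasi-likelihood test, the exact test or DESeq2, and the list's sum was 4.35 to 9.83 CPM in control and 6.78 to 7.87 CPM in KO libraries, with 1 higher and 0 lower at an unadjusted p under 0.05. Of blood and immune cell markers, 2 of 4 tested were upregulated, Ptprc (2.53 ± 0.73 (SE), adjusted p = 0.0108) and Cd68 (1.46 ± 0.30 (SE), adjusted p = 0.00141), and the sum of the list was 88.3 to 109 CPM in control and 78.7 to 91.6 CPM in KO libraries, most of it Pecam1, which was not called. The red cell markers Hbb-bs and Hba-a1 had no count in any library. The part of RNA from other cells in the Hox levels was not tested beyond these values.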

How the data were processed

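RNA of GV oocytes was measured in 4 Zp3-Cre control and 4 CNOT7&8 KO libraries, grouped by their labels. The authors sequenced 150-bp read pairs, ran the nf-core/rnaseq pipeline, in which STAR 2.6.1d mapped them to GRCm38, and deposited, for every gene and library, the raw count of reads, neither normalized nor filtered nor pooled. The labels name a stranded total RNA kit with ribosomal RNA removal and the paper's methods a stranded mRNA kit. The counting tool within the pipeline, annotation and strand setting are not given in the sources used here, so counts of overlapping and antisense genes are uncertain. The table has 46078 genes, 28353 with a count.

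The analysis used edgeR 4.0.16, DESeq2 1.42.0 and limma 3.58.1 under R 4.3.3. The 19241 genes that reached 0.2 CPM in 2 libraries were scaled by TMM and compared by edgeR's quasi-likelihood test, p-values were adjusted over all of them (Benjamini-Hochberg), and the thresholds were an adjusted p of at most 0.05 and 2-fold. The exact permutation test was two-sided. Library sizes are sums over all genes. Where no control library had a count, fold changes are lower bounds against 3 counts per library. Where the control libraries held 1 to 3 counts, ratios of pooled counts have 95% exact intervals. PCR copies cannot be told from separate molecules in these counts, so intervals and floors cover counting error alone. All 39 Hox gene identifiers, and 98.0% of all, were found in GENCODE vM21 (GRCm38), which gave coordinates, exon lengths and overlaps. Promoters came from RefSeq. The tests were tested on simulated data.

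Named in full were the Hox genes called in either direction and those with a group mean of at least 1 CPM, and of the other lists up to 4 called genes by size of change, except that 3 genes are not reported here by name, though counts and sums include them. The members, lists and this rule were chosen with earlier results of these data known. Alternatives were other tests, scalings, filters and thresholds, the replicate block and leaving out libraries. Tables and figures used pandas 2.3.3 and matplotlib 3.10.9 under Python 3.11.15.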

Additional observations from a re-analysis of the deposited data

Results flagged for a closer look

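Among 101 groups of 4 libraries checked for a library far from the other 3 by Dixon's test, 13 had one, and about 5.05 would be flagged by chance. Among the Hox genes, Hoxd1 was at 12.1 CPM in KO 4 against 7.25 to 7.83 in the other KO libraries, Hoxd12 at 0.783 in KO 4 against 0.217 to 0.275, and Hoxb3 at 0.760 in KO 1 against 0.170 to 0.247. Hoxd13 was at 1.60 CPM in control 1 against 1.02 to 1.09 in the other control libraries, and Hoxa5 at 0 in control 4 against 0.134 to 0.148. Of the noncoding RNA genes, Hotairm1 was at 0.760 CPM in KO 1 against 0.247 to 0.306, and Hoxb3os at 0.437 in control 4 against 0.187 to 0.204. Of the regulators, Kmt2a was at 52.5 CPM in KO 4 against 18.2 to 23.1, Phf19 at 17.2 in control 2 against 13.2 to 13.7, Rarg at 4.32 in KO 3 against 1.43 to 1.85, and Pbx3 at 2.47 in control 2 against 3.88 to 4.15. Tbx18 was at 0.134 CPM in control 1 against 0 in the others, and the immune marker Ptprc at 0.340 in control 3 against 0.0267 to 0.0728.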

How the results depend on the processing

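The count of 19 upregulated Hox genes was 15 to 20 under other tests, scalings and thresholds, and 17 to 19 when 1 library was left out. It was 10 when genes had to reach 1 CPM in 4 libraries, which left 11 Hox genes to test, and 7 among genes that pass the filter on control libraries alone, an alternative chosen after seeing the data. The count of 0 downregulated Hox genes stayed 0 when any 1 library was left out and was 1 (Hoxa7) at an adjusted p of at most 0.05 without a fold threshold. Of the 19, 14 kept their call under every one of the 20 alternatives that tested them and none reversed. Hoxa3, Hoxa9, Hoxb3, Hoxc6 and Hoxd4 lost it in at least 1, and the cause was not tested. The ratio of summed Hox levels was 2.50, 3.04 with library size alone and 7.32 without Hoxa7, the last chosen after seeing the data. The median number of Hox genes detected was 29 in KO and 19 in control libraries, 19.5 and 10 with more than 3 counts, and 26.3 and 14.9 at the shallowest depth. Matching numbers over all genes are not given here. Of 480 list counts under the alternatives, 439 stayed within 1.5 times and 41 moved.

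Both groups carry replicate numbers 1 to 4, but the labels do not say that a number marks a shared animal or batch. Deviations from the group means of same-numbered libraries had correlations of -0.07, -0.04, 0.11 and -0.12. Those of different-numbered libraries ran from -0.33 (control 1 with KO 3) to 0.37 (control 1 with KO 4). Same-numbered libraries thus did not deviate together, but such correlations cannot show whether they shared an animal or batch. With the replicate number as a block, 19 Hox genes were upregulated and 0 downregulated. Scaling moved the split of all calls: 78.4% of them were upregulated with TMM, 90.6% with library size alone and 89.8% with TMM on genes of at least 10 CPM.

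The depth of the shallowest library and the low control levels limit the fold changes of 7 upregulated genes with at most 3 control counts. For the 16 untested genes no change was detectable at this depth, since KO and control libraries overlapped in each. The counting interval of Hoxc11 left out 1, but it does not include the spread between libraries.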
